A study of Rattus norvegicus with 69 samples.

Results

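Genes of respiratory complexes II to V were followed in rat blood. The set held every gene with a probe set annotated to exactly 1 symbol, where that symbol starts with Sdh followed by a, b, c or d, with Uqcr, with Cox followed by a digit, or with Atp5. The rule found 58 probe sets of 57 genes among 36685 probe sets and 14557 genes with 1 symbol. The probe set with the highest mean stood for a gene, and only Atp5mpl had a second one, with a mean of 1.44 on the log2 scale. A further 9 probe sets name one of these genes together with another symbol and were left out. By role, 4 genes encode subunits of complex II and 2 its assembly factors, and 5 encode subunits of complex III. For complex IV, 9 genes were classed as subunits used in most tissues, with Cox7a2l, a gene like Cox7a2, counted among them. Another 6 encode complex IV isoforms of particular tissues and 7 help to assemble complex IV. A further 4 genes encode the F1 head of ATP synthase (complex V), 10 its membrane part and stalk and 1 its inhibitor, and 9 symbols name gene copies or pseudogenes.

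The respiratory chain sits in the inner mitochondrial membrane. Succinate dehydrogenase (complex II) passes electrons from succinate to ubiquinone, cytochrome bc1 (complex III) hands them to cytochrome c, and cytochrome c oxidase (complex IV) hands them to oxygen, while complexes III and IV pump protons that flow back through ATP synthase and drive the making of ATP. In blood, mature red cells have lost their mitochondria, reticulocytes still carry some, and platelets and leukocytes keep theirs.

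All rats were male Sprague-Dawley animals, 9 weeks old at purchase, that breathed either filtered air or laser printer-emitted particles (PEPs) together with the printer's gases, in whole-body chambers for 5 hours per day and for at most 21 days. After an overdose of pentobarbital and bleeding, whole blood went into RNAlater, and total RNA was hybridized to Affymetrix Rat Gene ST arrays. The 69 arrays formed 14 groups. Each arm held 5 arrays on each of days 1, 5, 9 and 13 and 6 on day 21, day 17 held 4 filtered air and 5 exposed arrays, and 4 further arrays of each arm on day 21 came from rats with a telemetry implant. The exposures were run more than once and the labels do not say which rat was in which run, so the part of the run in any result was not tested. The labels number the arrays of a group without naming animals, and p-values measure only the spread between these arrays.

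Array medians lay between 2.44 and 2.78 and correlations between arrays between 0.897 and 0.974. In the weighted fit, 4 arrays had a weight under 0.5: replicate 2 of filtered air on day 1 (0.229), replicate 1 of filtered air on day 13 (0.246), replicate 1 of the exposed rats on day 5 (0.286) and replicate 5 of the exposed rats on day 1 (0.452). The first of these had a mean of 5.71 over the platelet markers, where the other 4 arrays of its group lay between 8.89 and 9.30. Group means over the erythroid markers lay between 9.67 and 10.39 and over the T cell markers between 7.39 and 7.92, against 1.49 to 1.69 over 68 olfactory receptor genes, taken here as background.

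Most of the genes gave a clear signal in blood. The mean over all arrays was at least 5 for 36 of the 57 genes, and 43 lay at or above 3.11, the 95th percentile of the olfactory receptor genes. Levels are values of single probe sets on the log2 scale, and the level of one probe set says nothing about that of another. Among complex II subunits, Sdha (the flavoprotein that oxidizes succinate) had a mean of 6.92 and Sdhb (the iron-sulfur subunit) of 5.90. In complex III, Uqcrh (the hinge protein) stood at 11.42 and Uqcrfs1 (the Rieske iron-sulfur protein) at 4.88. Of the assembly factors, Cox16 was at 7.18 and Cox11 (a copper chaperone) at 4.48 for complex IV, and Sdhaf2 was at 6.53 and Sdhaf1 at 5.15 for complex II.

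The isoforms of complex IV were set against the background range. Cox4i1, Cox6a1 and Cox8a, the forms used in most tissues, had means of 8.22, 11.05 and 8.92. Their tissue-restricted relatives were all within the range of the olfactory receptor probe sets: Cox4i2 (known from lung) at 2.03, Cox6a2 (known from heart and skeletal muscle) at 2.73, Cox6b2 and Cox8c (known from testis) at 2.06 and 1.37, Cox8b (known from heart and skeletal muscle) at 1.76 and Cox7b2 at 1.30. Cox6b1, a subunit of most tissues, was also in that range, at 1.49. For ATP synthase, Atp5f1b (the catalytic beta subunit) had a mean of 9.67, Atp5f1a (the alpha subunit) of 7.75 and Atp5f1c (the gamma subunit that forms the rotating shaft) of 2.83, within the background range. In the membrane part and stalk, Atp5mpl was at 8.76, Atp5mc3 (a gene for the c subunit of the rotor ring) at 5.54 and Atp5pf at 5.02, and Atp5if1, which blocks the reverse reaction of the enzyme, was at 10.42. Among the copies, Atp5hl1 had a mean of 4.44 and Uqcr11l1 of 1.15. A copy can share sequence with its parent gene, and the values of copies are uncertain for that reason.

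Between rats of a group, the spread was widest for Atp5mgl4, a gene copy (SD within groups 0.522), Atp5f1c (0.498) and Cox7b, a small subunit of complex IV (0.494). Uqcrh had the narrowest of those named here, 0.158. After group means were subtracted, the 43 genes above background had a median pairwise correlation over the 69 arrays of 0.10 (range −0.59 to 0.76 over 903 pairs). The 4 complex II subunits correlated more closely with each other (median 0.44, range 0.29 to 0.66 over 6 pairs). The pairs share arrays, and so share RNA quality and cell make-up.

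Promoters of the genes are shown because nuclear respiratory genes are known to share a few binding sequences there. A RefSeq promoter of 300 bases (250 before and 50 after the start, build GRCr8) was found for 46 of the 57 genes. The ETS core CCGGAAG, the site type bound by NRF2/GABP, was found on either strand in 39.1% of them, against 8.75% of all 33469 promoters of that length and 20.4% of 3959 promoters of other genes with a probe set mean of at least 5. The NRF1 sequence GCGCANGCGC was in 19.6% (4.25% of all, 10.3% of the other genes at a mean of at least 5), the YY1 sequence AAGATGGCG in 6.52% (1.73% and 4.85%) and TATAAA in 10.9% (14.2% and 7.20%). No overlap between motifs was removed. A match is a description of letters and not a binding site. The 3 promoters below are shown since Cox4i1 and Cox8a fell between day 1 and day 21 in both arms while Sdha did not pass the test in either. Cox4i1 (chr19:65630133-65630432, plus strand) and Cox8a (chr1:213833574-213833873, minus strand) each hold 2 ETS cores, both read on the opposite strand, and Sdha (chr1:30764303-30764602, plus strand) holds 3 NRF1 sequences. Capitals mark these matches. The 3 promoters do not stand for the other genes. Atp5f1b, which also fell in both arms, holds none of these motifs, and Atp5me, which fell in the exposed rats, holds 1 ETS core and 1 NRF1 sequence. Sdhd, which passed in neither arm, holds 2 ETS cores.
Cox4i1: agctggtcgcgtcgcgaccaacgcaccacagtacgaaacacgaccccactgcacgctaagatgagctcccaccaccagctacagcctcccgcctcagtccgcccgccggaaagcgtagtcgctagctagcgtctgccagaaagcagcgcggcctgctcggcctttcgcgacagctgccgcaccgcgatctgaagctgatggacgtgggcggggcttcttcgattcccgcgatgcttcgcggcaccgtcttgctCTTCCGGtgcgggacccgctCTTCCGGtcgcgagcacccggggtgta
Cox8a: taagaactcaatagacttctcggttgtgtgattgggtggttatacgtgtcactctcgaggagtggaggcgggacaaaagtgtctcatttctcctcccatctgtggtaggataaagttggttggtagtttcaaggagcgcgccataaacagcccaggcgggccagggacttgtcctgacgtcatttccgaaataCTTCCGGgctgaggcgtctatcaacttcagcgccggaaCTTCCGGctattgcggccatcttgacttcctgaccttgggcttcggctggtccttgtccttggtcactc
Sdha: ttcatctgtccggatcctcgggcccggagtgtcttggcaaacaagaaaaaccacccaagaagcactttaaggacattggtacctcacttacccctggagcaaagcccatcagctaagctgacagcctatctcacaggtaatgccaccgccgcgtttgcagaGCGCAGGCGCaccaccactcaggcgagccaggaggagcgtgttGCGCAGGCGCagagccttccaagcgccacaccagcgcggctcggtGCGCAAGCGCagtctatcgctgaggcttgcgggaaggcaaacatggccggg
Of the 12 genes with a promoter that fell between day 1 and day 21 in either arm, 6 held the ETS core, as did 12 of the other 34 (35.3%). All 18 promoters with the core belonged to the 34 genes with a promoter and a mean of at least 5 (52.9%). The other genes include the dim isoforms and copies, so these shares mix the level with the fall. Whether the core goes with the fall was not tested.

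The study looked for effects of exposure in lung, blood and serum, and only blood mRNA was compared here. None of the 54 genes tested differed between PEPs-exposed rats and filtered air on any day, with or without the implant, in the mean of the 6 days, or in the difference of the effect between days (limma, Benjamini-Hochberg over 34176 probe sets, adjusted p under 0.05). Atp5pb, Cox7c and Uqcrh had a variance under 0.05 over all arrays and were not tested. Over all probe sets, the share called was 0% on days 1, 5, 17 and 21, 0.00585% on days 9 and 13 and in the implanted rats, 0% for the mean of the days and 0% for the difference between days. At an unadjusted p under 0.05, 4 genes passed on day 1 (7.41%, against 6.59% of all probe sets), 2 passed on day 5 (3.7% against 5.61%), 2 on day 9 (3.7% against 7.12%) and 4 on day 13 (7.41% against 7.7%). There were 4 on day 17 (7.41% against 4.88%), 2 on day 21 (3.7% against 4.96%), in the implanted rats 5 (9.26% against 5.33%), for the mean of the days 1 (1.85% against 6.17%) and for the difference between days 3 (5.56% against 7.02%). The shares of the genes lay on both sides of those of all probe sets.

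In order of the days, the median differences (exposed minus filtered air, log2) were −0.06, 0.00, −0.01, 0.11, 0.12 and −0.02, and 0.12 in the implanted rats, where the median of all probe sets lay between −0.01 and 0.01. Over the 34 genes with a mean of at least 5 they were −0.07, 0.04, 0.07, 0.10, 0.15 and −0.04, and 0.13 in the implanted rats, against −0.08, −0.03, 0.05, 0.08, 0.02 and −0.01, and 0.02, over all 7543 probe sets at that level. In the mean of the 6 days the differences of single genes lay between −0.15 and 0.19, and the widest 95% confidence intervals reached from −0.32 (Cox7b) to 0.39 (Cox6c). On single days the intervals were wider, reaching down to −1.22 on day 17 (Uqcr11l1) and up to 1.28 on day 13 (Atp5mgl4), both of them probe sets in the background range. Among genes with a mean of at least 5 they reached down to −1.18 (Cox7b) and up to 1.07 (Sdhaf1), both on day 17.

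The genes with the smallest unadjusted p are given without a call. Cox11 on day 13 had values of 4.32, 4.53, 4.12, 3.64 and 4.06 in filtered air and of 4.64, 4.70, 4.65, 5.10 and 4.56 in the exposed rats. These groups did not overlap, and the fitted difference was 0.64 ± 0.20 (log2 ± SE, limma adjusted p = 0.354). On day 17, the copy Uqcr11l1 had values of 1.73, 1.47, 1.72 and 1.76 in filtered air and of 1.08, 0.90, 1.15, 0.65 and 1.02 in the exposed rats, again with no overlap (−0.77 ± 0.23, adjusted p = 0.894). All of these values lie in the background range, and on day 1 the same probe set differed the other way (0.70 ± 0.24, adjusted p = 0.662). Its unadjusted p for a difference between days was 2.0e-04 (adjusted p = 0.226).

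Among genes with a clear signal, Cox16 (a complex IV assembly factor) differed by −0.31 ± 0.12 on day 1 (limma adjusted p = 0.71), Cox8a by 0.33 ± 0.17 on day 5 (adjusted p = 0.888) and Sdhaf1 by −0.55 ± 0.28 on day 5 (adjusted p = 0.894). Uqcrc2, a core protein of complex III, was higher in the exposed group mean by 0.31 ± 0.14 on day 9 (adjusted p = 0.645) and by 0.28 ± 0.13 on day 13 (adjusted p = 0.594), and lower by −0.23 ± 0.11 on day 21 (adjusted p = 0.988). On day 9 Cox4i1 differed by −0.27 ± 0.12 (adjusted p = 0.678) and Sdhb by 0.31 ± 0.16 (adjusted p = 0.709), and on day 17 Sdhc (a membrane anchor of complex II) by 0.33 ± 0.16 and Cox6c by 0.58 ± 0.29 (both adjusted p = 1.0). The remaining genes of lowest p were Cox7b2 on day 1, Cox6c-ps1 on day 5, Atp5mgl4 on days 13 and 21 and Uqcr11l1 on day 21, all with means in the background range. In the implanted rats Atp5mk, a small membrane subunit of ATP synthase, differed by 0.38 ± 0.16 (adjusted p = 0.854), Cox5b by 0.52 ± 0.22 (adjusted p = 0.854) and Sdhc by 0.35 ± 0.15 (adjusted p = 0.873). In the mean of the days Cox11 differed by 0.19 ± 0.08, Atp5mg by −0.15 ± 0.08 and Cox6c by 0.16 ± 0.11 (adjusted p = 0.777, 0.840 and 0.885).

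**Figure D1:**
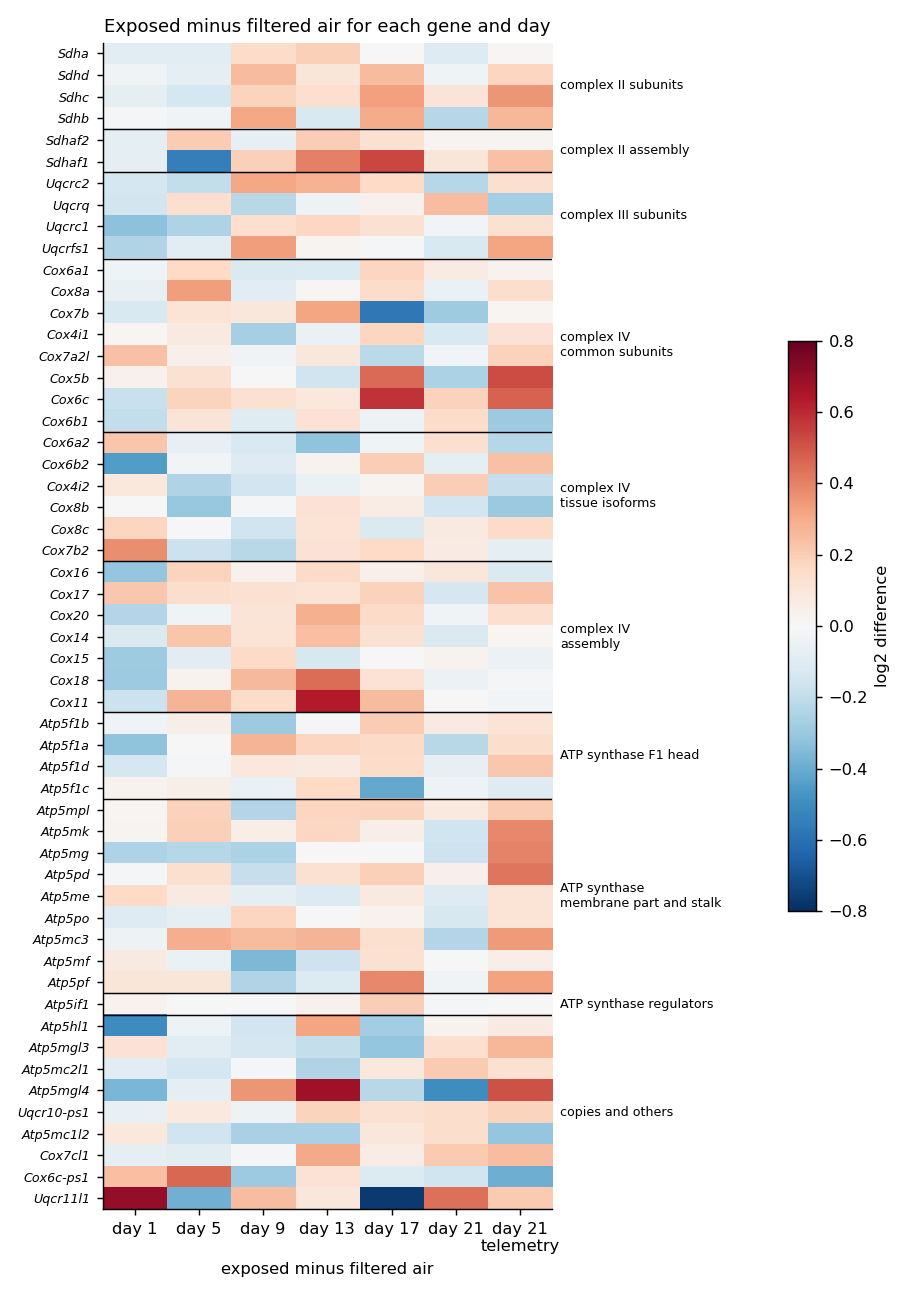
Fitted difference between exposed and filtered air rats (log2, colour) for the 54 genes tested (vertical axis, grouped by role) on each day and in the implanted rats of day 21 (horizontal axis). Red is higher in exposed rats, no cell passed the test, and the colour of a gene can change between days, as for Uqcrc2 (0.31 on day 9 and −0.23 on day 21).

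Part of the chain differed between the first and the last day in both arms. Between day 1 and day 21, 8 of the 54 genes fell in filtered air and none rose, and in the exposed rats 13 fell and 1 rose. These were 14.8% of the genes in filtered air and 25.9% in the exposed rats, against 1.97% and 8.13% of all probe sets called in either direction, and against 1.15% and 3.45% called lower. Among probe sets with a mean of at least 5 the shares called lower were 3.39% and 6.52%, while all 8 of the genes that fell in filtered air and 11 of the 13 in the exposed rats were at that level. In bulk blood, fewer cells of a type and less RNA per cell cannot be told apart. Handling, age and array processing also cannot be told apart from the day.

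Members of ATP synthase and of complex IV made up most of the genes that fell, and also most of the genes in the set. Atp5f1b had values of 10.02, 10.48, 9.72, 10.39 and 9.88 on day 1 in filtered air, and of 8.89 to 9.68 with a median of 9.22 on day 21. Exposed rats had values of 9.75, 10.17, 10.16, 10.003 and 9.81 on day 1, and of 9.20 to 9.54 with a median of 9.29 on day 21. All day 21 values lay below all day 1 values in either arm, and the differences were −0.77 ± 0.15 in filtered air (0.585-fold, limma adjusted p = 0.0037) and −0.67 ± 0.16 in the exposed rats (0.628-fold, adjusted p = 0.0053). The other subunits of the F1 head did not pass: Atp5f1a differed by −0.05 and 0.05, Atp5f1d (the delta subunit) by 0.04 and 0.11 and Atp5f1c by 0.51 and 0.44 in filtered air and exposed rats.

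Within the membrane part and stalk, 3 of 9 genes tested fell in filtered air and 5 in the exposed rats, and the median difference was −0.45 and −0.48. Atp5mf (subunit f) had values of 6.01, 6.45, 5.45, 5.26 and 5.72 on day 1 in filtered air and of 4.65 to 5.29 on day 21 (median 4.91), with a difference of −0.73 ± 0.18 (limma adjusted p = 0.021). Among exposed rats Atp5mf had values of 5.86, 6.16, 6.60, 4.78 and 5.17 on day 1 and of 4.68 to 5.46 on day 21 (median 4.89), a difference of −0.80 ± 0.19 (adjusted p = 0.0048). The day 1 values of Atp5mf were widely spread, and the groups overlapped in both arms. Atp5pd, a subunit of the peripheral stalk, fell by 0.68 ± 0.18 and 0.62 ± 0.19 (adjusted p = 0.035 and 0.029) and Atp5mpl by 0.51 ± 0.13 and 0.44 ± 0.13 (adjusted p = 0.026 and 0.028). In the exposed rats Atp5me (subunit e) and Atp5mk also fell, by 0.73 ± 0.21 and 0.52 ± 0.15 (adjusted p = 0.020 and 0.024), where the values in filtered air were −0.47 and −0.34 and did not pass. Atp5if1 was called in both arms, from group means of 10.63 to 10.16 in filtered air (−0.45 ± 0.13, adjusted p = 0.046) and from 10.64 to 10.16 in the exposed rats (−0.49 ± 0.13, adjusted p = 0.014). In filtered air the call of Atp5if1 was lost in 7 of 11 fits that left out 1 array (adjusted p up to 0.154), that of Atp5pd in 6 (up to 0.119) and those of Atp5mf and Atp5mpl in 4 each. In the exposed rats Atp5mk lost its call in 5, Atp5pd in 4 and Atp5me in 3.

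In complex IV, the subunits used in most tissues had median differences of −0.45 and −0.41, with 2 of 8 falling in filtered air and 4 in the exposed rats. Cox4i1, whose promoter is shown above, had values of 8.58, 9.01, 8.34, 8.66 and 8.47 on day 1 in filtered air and of 7.65 to 8.22 on day 21 (median 8.07). Exposed rats had values of 8.49, 8.71, 8.65, 8.47 and 8.35 on day 1 and of 7.78 to 8.07 on day 21 (median 7.89). The days did not overlap in either arm, with differences of −0.51 ± 0.11 (0.703-fold, limma adjusted p = 0.010) and −0.65 ± 0.12 (0.639-fold, adjusted p = 4.1e-04). Cox8a fell by 0.58 ± 0.15 in filtered air (adjusted p = 0.022) and 0.57 ± 0.15 in the exposed rats (adjusted p = 0.012). Cox7b fell in the exposed rats, from values of 9.24, 9.52, 9.503, 8.71 and 9.12 to values of 7.87 to 8.48 with a median of 8.28, the largest difference of the 54 genes in either arm (−0.98 ± 0.29, adjusted p = 0.023). In filtered air the difference of Cox7b was −0.82 ± 0.28 (adjusted p = 0.105). Cox5b fell by 0.80 ± 0.22 in the exposed rats (adjusted p = 0.015) and differed by −0.51 in filtered air, which did not pass. In the exposed rats the call of Cox7b was lost in 3 of 11 fits that left out 1 array (limma adjusted p up to 0.082). That of Cox5b was lost in 1.

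Complexes II and III and the assembly factors mostly did not pass. All 4 complex II subunits had differences between 0.04 and 0.25 in filtered air and between −0.05 and 0.32 in the exposed rats, none past the threshold. Sdha, the third promoter shown, had values of 6.74, 6.003, 6.99, 7.07 and 6.92 on day 1 in filtered air and of 7.05 to 7.28 on day 21. Uqcrq, a small subunit of complex III, fell in filtered air from 6.70, 6.29, 6.31, 6.76 and 6.48 to values of 5.67 to 6.14 (−0.62 ± 0.16, limma adjusted p = 0.024), while in the exposed rats its difference of −0.22 did not pass. The call of Uqcrq in filtered air was lost in 4 of 11 fits that left out 1 array (limma adjusted p up to 0.093). Of the assembly factors only Cox16 passed, and it rose in the exposed rats, from 6.76, 6.998, 6.81, 7.10 and 6.89 to values of 7.01 to 7.39 (0.36 ± 0.11, adjusted p = 0.032). In filtered air Cox16 differed by −0.04. Of the tissue isoforms and copies, Cox7b2 and Cox6c-ps1 fell in the exposed rats (−0.45 ± 0.14 and −0.76 ± 0.20, adjusted p = 0.030 and 0.012), with group means of at most 1.76 and so in the background range.

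The 7 genes called lower in both arms were Atp5f1b, Atp5if1, Atp5mf, Atp5mpl, Atp5pd, Cox4i1 and Cox8a. The arms hold separate arrays. They were 7 of the 8 that fell in filtered air and 7 of the 13 that fell in the exposed rats. Signs were shared by more genes, with 24 lower and 14 higher in both arms of 54. Of the 7, only Atp5f1b and Cox4i1 kept their calls in both arms whichever array was left out, and the others lost theirs in filtered air in 4 to 7 of 11 such fits. Medians over all 54 genes were −0.12 and −0.05 (all probe sets −0.00 and −0.03), and over the 34 genes tested with a mean of at least 5 they were −0.18 and −0.21, where all 7543 probe sets at that level had medians of 0.16 and 0.24. After group means were subtracted, the genes that fell in either arm had a median pairwise correlation of 0.29 over the 69 arrays, and of −0.10 against the complex II subunits.

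**Figure D2:**
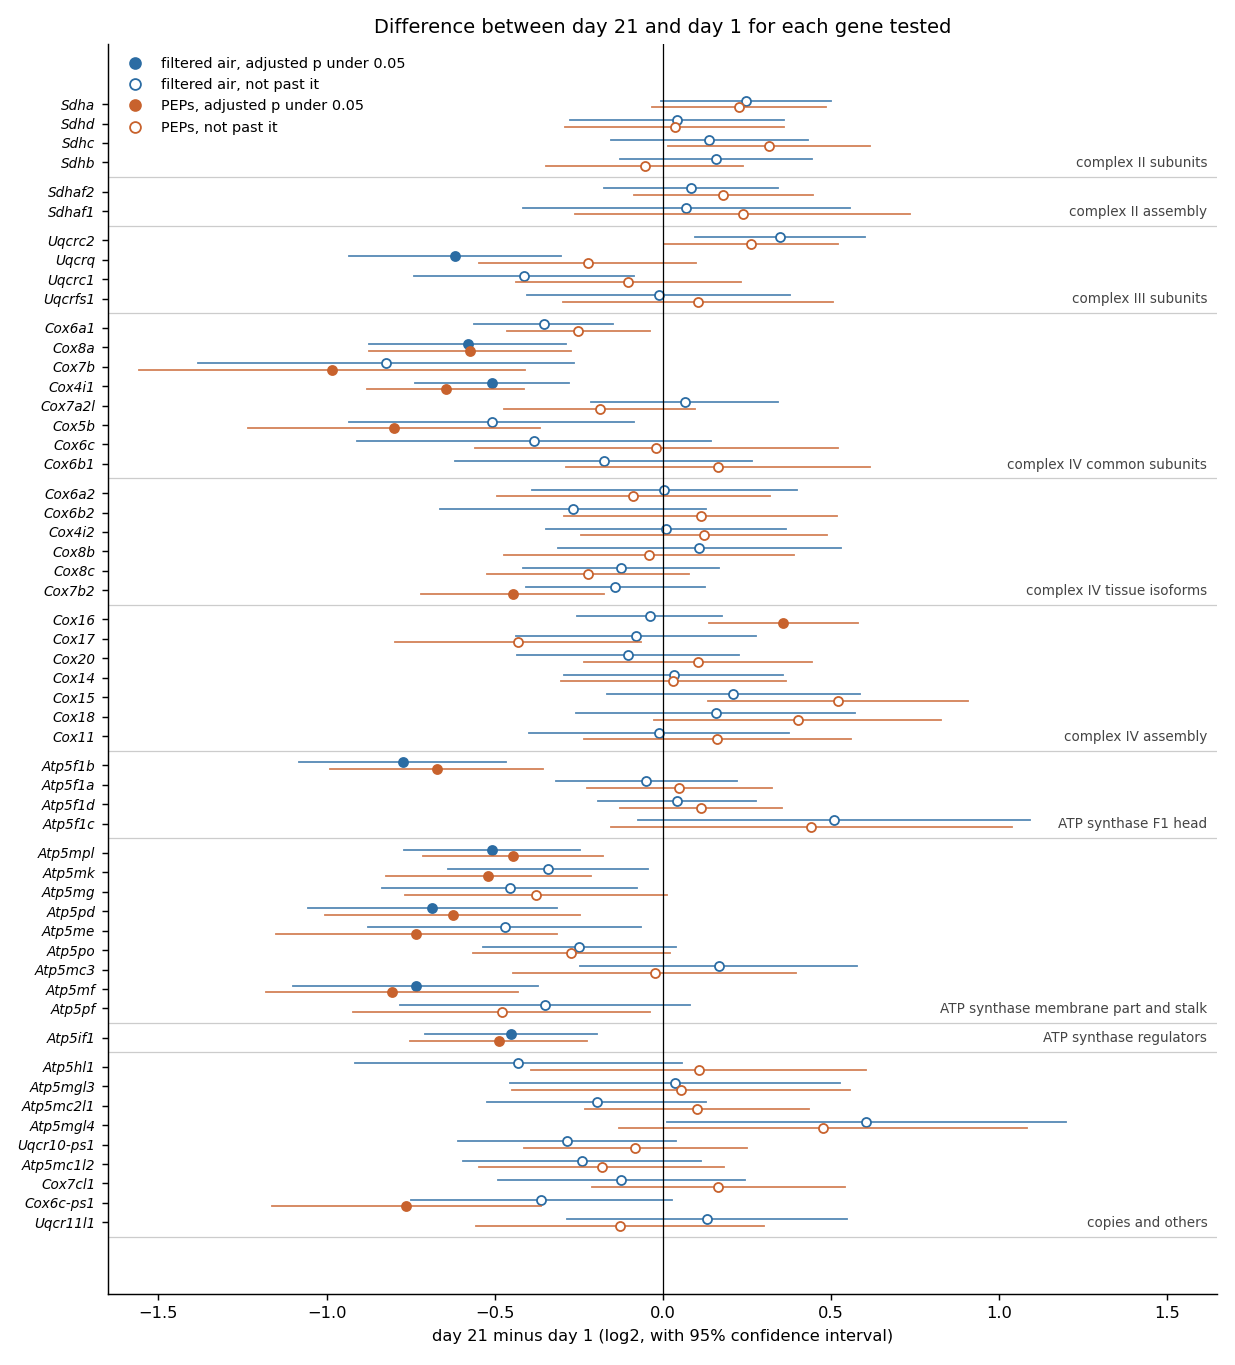
Difference between day 21 and day 1 (log2, horizontal axis, with 95% confidence intervals) for the 54 genes tested, grouped by role, in filtered air (blue) and in PEPs-exposed rats (orange). Filled points passed the test, and they lie left of 0 for ATP synthase and complex IV subunits, with Cox16 the only one to the right.

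An F-test over the 6 days without implants (the course) called 9 genes in filtered air (16.7%, against 1.81% of all probe sets) and 14 in the exposed rats (25.9%, against 4.71%). All 9 of the first were among the 14 of the second: Atp5f1b, Atp5if1, Atp5mf, Atp5mpl, Atp5pd, Cox4i1, Cox6a1, Cox8a and Uqcrc2. The group mean was lowest on day 17 for 5 of the 9 genes in filtered air and on day 21 for 3. In the exposed rats 9 of the 14 were lowest on day 21 and 2 on day 17. Cox4i1 went from 8.61 on day 1 over 8.30, 8.40, 8.24 and 7.80 to 8.03 on day 21 in filtered air (limma adjusted p = 0.0036), and from 8.53 over 8.42, 8.11, 8.11 and 8.04 to 7.91 in the exposed rats (adjusted p = 0.0030). Uqcrc2 was not lowest at the end, with means of 6.17, 6.28, 5.98, 6.25, 6.36 and 6.60 in filtered air (adjusted p = 0.046) and of 6.04, 5.97, 6.30, 6.54, 6.51 and 6.36 in the exposed rats (adjusted p = 0.037). Its call in filtered air was lost in 21 of 30 fits that left out 1 array (adjusted p up to 0.13), and that of Cox6a1 in the exposed rats in 11 of 31 (up to 0.0786). Further calls were lost less often, among them that of Atp5if1 in filtered air in 6 of 30. In the exposed rats Cox6c-ps1 lost its call in 8 of 31, Atp5mk in 5 and Atp5f1b in 4 (adjusted p up to 0.066). The remaining genes called in the exposed rats alone were Atp5mk, Cox16, Cox6c-ps1, Cox7b and Uqcr11l1, and the difference between the arms over the days passed for none of them. Over all 54 genes, leaving out 1 array left 6 to 10 calls in filtered air and 6 to 15 in the exposed rats, where the count fell to 6 without day 1 replicate 2, 7 without day 21 replicate 5, 8 without day 1 replicate 3 or day 5 replicate 2, and 9 without day 1 replicate 5, day 5 replicate 1, day 17 replicate 4 or 5 or day 21 replicate 3. Without the 4 arrays of weight under 0.5 the counts were 9 and 8.

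**Figure D3:**
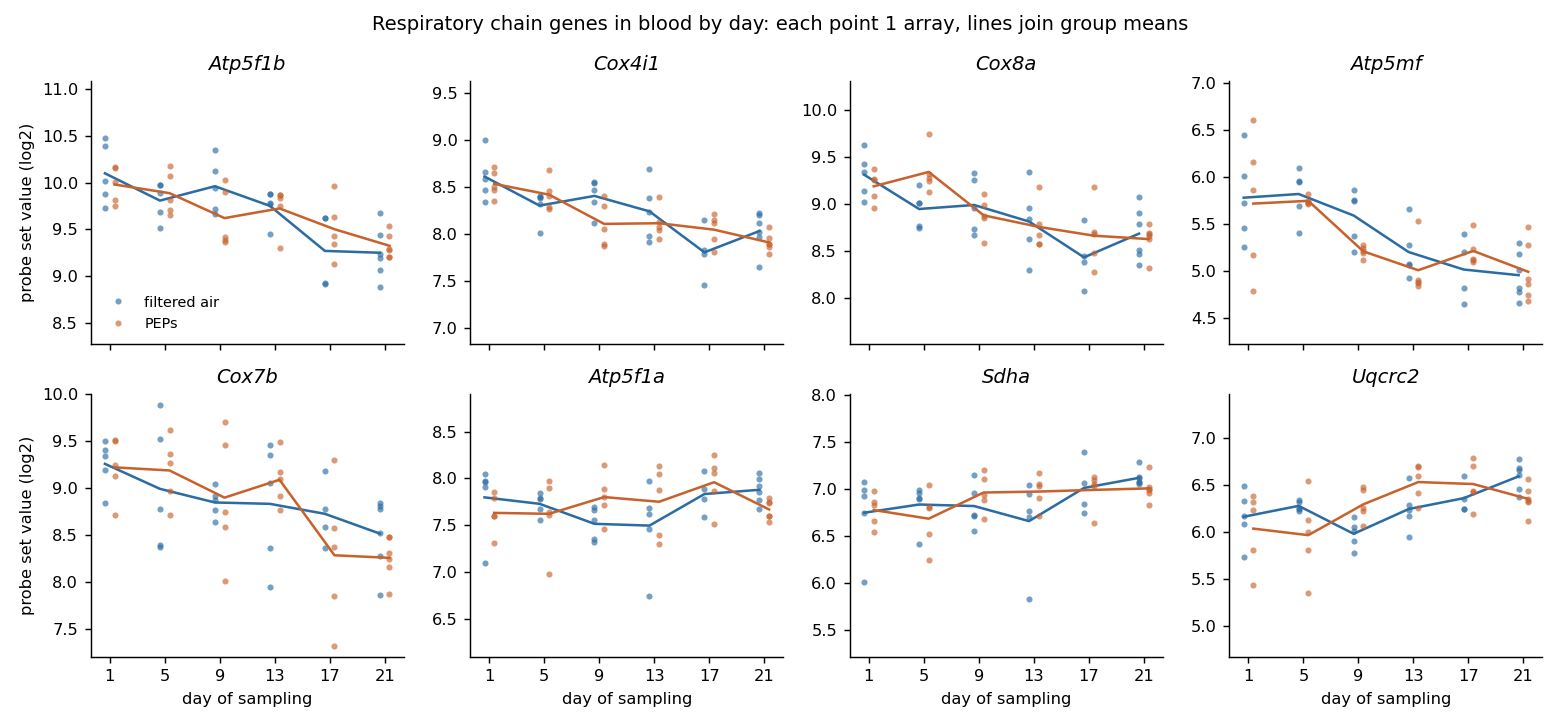
Probe set values (log2, vertical axis) on each day of sampling (horizontal axis) for 8 genes, with 1 point per array and lines through the group means, filtered air in blue and PEPs-exposed rats in orange. Atp5f1b, Cox4i1, Cox8a, Atp5mf and Cox7b lie lower on day 21 than on day 1, whereas Atp5f1a, Sdha and Uqcrc2 do not.

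Other measures moved with the day as well. Of the erythroid and reticulocyte markers 7 of 15 listed were measured and 5 tested. All 5 were lower on day 21 than on day 1 in both arms, with 2 called in filtered air and 4 in the exposed rats, among them Slc25a37, which imports iron into mitochondria (−0.99 ± 0.19 and −1.35 ± 0.20, limma adjusted p = 0.0028 and 2.9e-05). The mean over the erythroid markers ranged from 10.20 to 10.54 on day 1 and from 9.55 to 9.96 on day 21 in filtered air, and from 10.22 to 10.53 and from 9.49 to 9.84 in the exposed rats, so that the days did not overlap. Of 10 T cell markers, 6 rose in the exposed rats and none in filtered air, while none of the platelet, neutrophil, monocyte or B cell markers passed in either arm. Over all 34176 probe sets, 1599 were called higher in the exposed rats and 279 in filtered air. Among the 7543 with a mean of at least 5 it was 1166 and 162. Prf1 was the only NK and cytotoxic marker to pass, higher in the exposed rats. The part of these markers in the differences between days was not tested. The covariate fits that follow cannot separate the erythroid mean from the day, since its values on days 1 and 21 did not overlap. The lower quartile of all values of an array, which reflects dim probe sets, had a mean of 1.57 on day 1 and 1.44 on day 21 in filtered air and of 1.60 and 1.45 in the exposed rats.

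With the erythroid marker mean as a covariate in the fit, 0 of the 54 genes passed between day 1 and day 21 in either arm, and 0 with the lower quartile as a covariate. Calls were lost across the whole array and not in these genes alone. Over all 34176 probe sets they went from 673 in filtered air and 2779 in the exposed rats to 3 and 3 with the erythroid mean and to 33 and 27 with the lower quartile. Atp5f1b then differed by −0.43 and −0.25 (erythroid mean) or −0.67 and −0.51 (lower quartile) in filtered air and exposed rats, and Cox4i1 by −0.44 and −0.57 or −0.41 and −0.48. For Atp5pd in the exposed rats the erythroid covariate left 0.03. A fit on the arrays of the compared groups alone called 0 genes in filtered air and 6 in the exposed rats, against 8 and 928 of all probe sets. In the fit on all arrays, 17 genes (31.5%) had an unadjusted p under 0.05 in filtered air, against 16.6% of all probe sets. Without the 4 arrays of weight under 0.5, 6 genes were called in filtered air and 12 in the exposed rats. Leaving out 1 array moved the count in filtered air from 8 to 2 (day 1 replicate 1, day 21 replicate 3), to 3 (day 21 replicate 4 or 5) or to 4 (day 1 replicate 4). Among the exposed rats it moved from 14 to 7 (day 1 replicate 3) or to 9 (day 1 replicate 1 or 2). Between day 1 and day 21, Atp5f1b and Cox4i1 passed in both arms in every fit that left out 1 array.

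**Figure D4:**
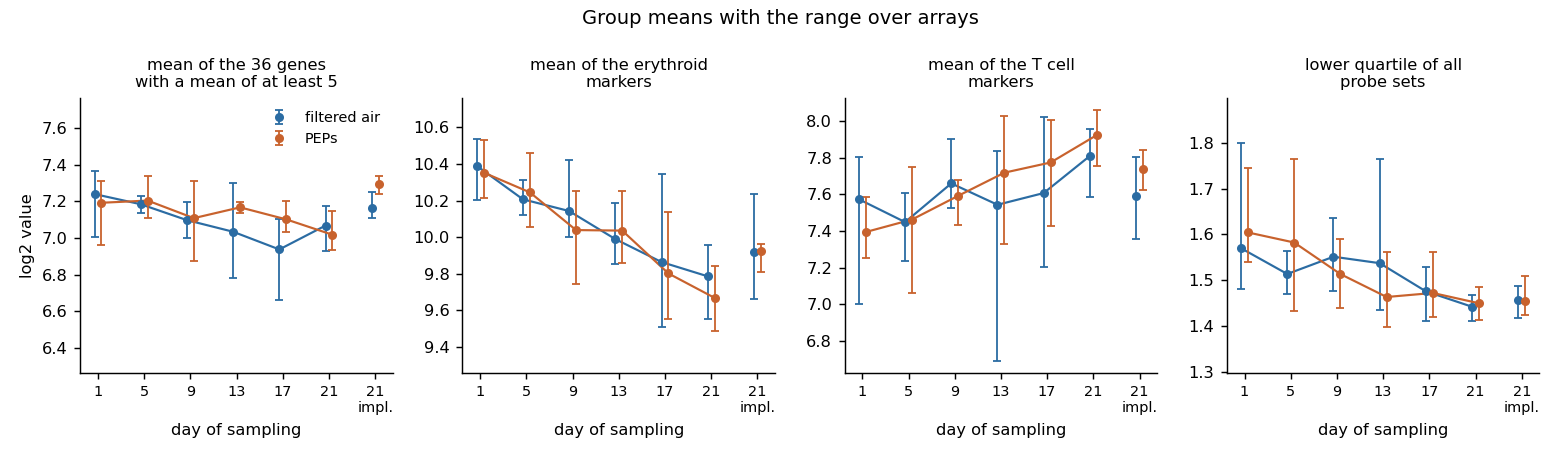
Group means (points) with the range over arrays (bars) by day of sampling, and for the implanted rats of day 21 at the right, of the mean over the 36 genes with a mean of at least 5, of the erythroid and T cell marker means and of the lower quartile of all probe sets (log2). The erythroid mean lies at 10.39 and 10.35 on day 1 and at 9.79 and 9.67 on day 21 in filtered air and exposed rats.

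The implant was compared with no implant on day 21 within each arm. In filtered air none of the 54 genes passed, against 0.468% of all probe sets, and 8 (14.8%) had an unadjusted p under 0.05, against 9.52%. In the exposed rats 3 genes rose (5.56%), against 1.22% of all probe sets called and 0.705% called higher. Cox8a had values of 8.32 to 8.79 (median 8.67) without the implant and of 8.99, 9.27, 9.39 and 9.27 with it, without overlap (0.60 ± 0.14, 1.52-fold, limma adjusted p = 0.011). Cox4i1 had values of 7.78 to 8.07 (median 7.89) and of 8.43, 8.26, 8.34 and 8.45, again without overlap (0.47 ± 0.11, 1.38-fold, adjusted p = 0.011). Atp5mk had values of 7.33 to 7.96 (median 7.63) and of 8.39, 8.22, 8.25 and 7.85, where the groups overlapped (0.54 ± 0.14, 1.45-fold, adjusted p = 0.031). In filtered air the differences were 0.41 ± 0.14 for Cox8a (adjusted p = 0.238), 0.22 ± 0.11 for Cox4i1 (adjusted p = 0.514) and −0.00 ± 0.14 for Atp5mk (adjusted p = 0.999).

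The effect of exposure with the implant less that without it was not called for any gene (0%, against 0% of all probe sets), and 8 genes (14.8%) had an unadjusted p under 0.05, against 5.26%. For Atp5mk that difference was 0.54 ± 0.20 and for Cox5b 0.77 ± 0.29 (limma adjusted p = 0.787 for both). In the exposed rats, 42 of the 54 genes were higher with the implant (median 0.16, all probe sets −0.01). Among the genes with a mean of at least 5 this was 32 of 34 (median 0.33, all probe sets at that level 0.02). Markers of other cells moved with the implant in these rats: 5 of 6 NK and cytotoxic markers rose, with a mean of 5.27 to 6.09 over the rats without and 6.52 to 7.23 over those with the implant, as did 3 of 7 monocyte markers (7.09 to 7.78 and 7.61 to 8.44) and 1 of 10 neutrophil markers, and 1 of 10 T cell markers fell. The erythroid mean lay between 9.49 and 9.84 without and between 9.81 and 9.96 with the implant, with none of its 5 tested genes called. The part of these markers in the result was not tested, and a fit without array weights, or one on the compared groups alone, called 0 of the 54 genes here, where calls over all probe sets went from 418 to 99 and 70. In the fit on all arrays 21 genes (38.9%) had an unadjusted p under 0.05, against 11.9% of all probe sets. Leaving out replicate 1 of the implanted exposed rats left 1 call of the 54, and leaving out replicate 6 of the exposed rats without the implant gave 5. Over the 10 such fits Atp5mk lost its call in 6 (adjusted p up to 0.209) and Cox4i1 and Cox8a in 1 each.

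**Figure D5:**
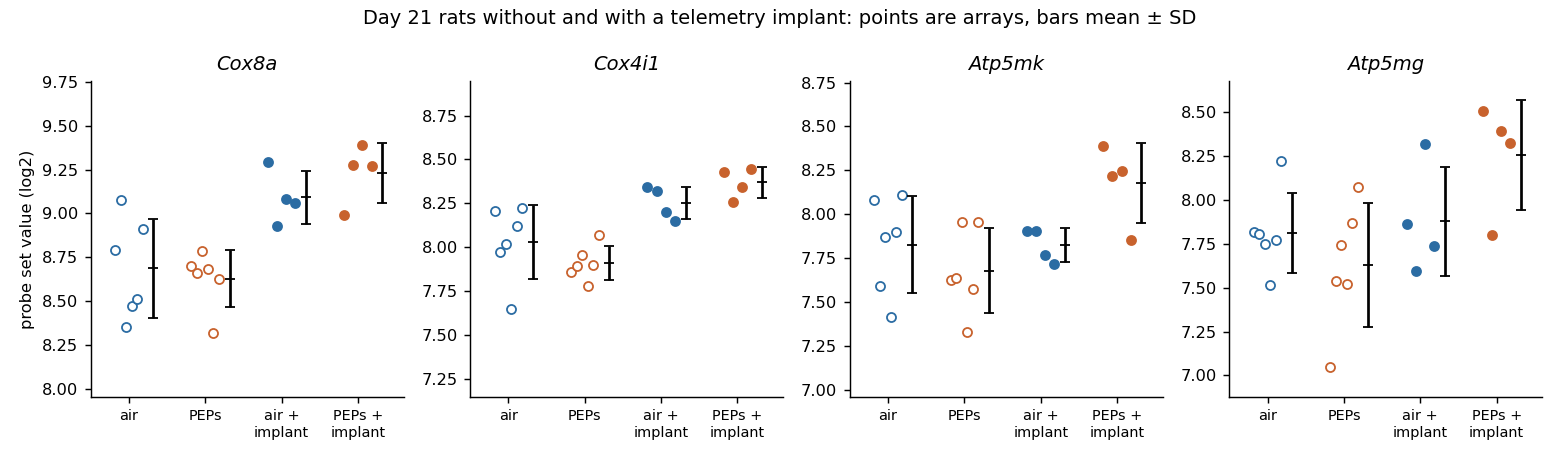
Probe set values (log2, vertical axis) on day 21 of rats without (open points) and with (filled points) the implant, for Cox8a, Cox4i1, Atp5mk and, not past the test, Atp5mg. Points are arrays, bars give the mean ± SD, and the exposed rats with the implant lie above those without it for Cox8a and Cox4i1.

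Other genes of the pathway were counted for the same days. Of 42 complex I genes tested, 3 fell in each arm between day 1 and day 21 (7.14%). Of all probe sets, 1.15% in filtered air and 3.45% in the exposed rats were called lower. With a mean of at least 5 it was 3.39% and 6.52%. Ndufa11 was among the complex I genes that fell in both arms (−0.61 ± 0.15 and −0.66 ± 0.15, limma adjusted p = 0.018 and 0.0044). Of 16 electron carrier and assembly genes outside the rule, Pet100, a complex IV assembly factor, fell in filtered air (−0.73 ± 0.19, adjusted p = 0.029) and had a value of −0.56 ± 0.19 in the exposed rats (adjusted p = 0.061), and no other gene passed. Of 7 citric acid cycle genes tested, Dlst, a subunit of the oxoglutarate dehydrogenase complex, fell in both arms (−0.78 ± 0.16 and −1.0 ± 0.17, adjusted p = 0.0061 and 2.2e-04), while Idh3a and Idh3b, subunits of isocitrate dehydrogenase, rose in the exposed rats (0.53 ± 0.13 and 0.46 ± 0.14, adjusted p = 0.0059 and 0.035). Of 11 regulators of mitochondrial gene expression, Gabpb1, a subunit of NRF2/GABP, and Pprc1, a coactivator, rose in the exposed rats (0.69 ± 0.22 and 0.62 ± 0.17, adjusted p = 0.042 and 0.017) and none passed in filtered air. Rises were common in the exposed rats, where 1599 of all 34176 probe sets were called higher. Among the 7543 with a mean of at least 5 it was 1166, so these few rises do not set the lists apart.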

How the data were processed

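Whole-blood RNA was measured on 69 arrays. The authors deposited log2 values made by RMA, which corrects background, normalizes quantiles and sums up the probes of a probe set (oligo, RMA, limma and R 3.4 are in the submitters' processing notes). All 69 columns were matched to samples through the labels. Values were used as deposited. The genes and the lists of pathway and marker genes were chosen with earlier results of these data known.

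Gene symbols came from the platform annotation, and 56 of the 57 genes were found in the RefSeq gene table by gene identifier. A minimum variance of 0.05 across the arrays left 34176 probe sets to test. One linear model with 1 mean per group and weights per array (limma's gene-by-gene method) was fitted with limma 3.58.1 in R 4.3.3, followed by eBayes, contrasts and F-tests over the days. Every adjusted p is the Benjamini-Hochberg value over all probe sets of that limma fit, with a threshold of 0.05, and fitted differences are weighted, so they can differ from differences of plain group means. The script was tested on simulated data. The precision is limited by the number of arrays.

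Genes were named by a rule: those called (at most 10 per comparison by size, the others where a role group was described), the 3 of smallest p in each exposure comparison, the highest and the lowest of each role group, the 3 of widest spread and the isoform pairs. The c subunit gene Atp5g1 was not analysed here. Motifs were searched on both strands of RefSeq promoters of build GRCr8 with Python 3.11.15. Alternatives were no array weights, cyclic loess, other filters, other probe set choices, updated symbols, the groups compared alone, trended and robust eBayes, a lower quartile covariate, a replicate block, medians subtracted and leaving out each array. An erythroid marker covariate and leaving out the arrays of weight under 0.5 were added after seeing the data.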

Additional observations from a re-analysis of the deposited data

Results flagged for a closer look

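In groups of 4 to 6 arrays at days 1 and 21, the 15 genes called between those days or with the implant were searched for an array whose gap to its nearest neighbour took up most of the group's range (Dixon's 95% limits). This marked 7 of 90 sets of values, and chance marks about 1 in 20. Atp5pd was 6.29 in replicate 4 of the implanted filtered air rats, where the others were 6.95 to 7.03. Cox8a was 8.32 in replicate 5 of the exposed rats on day 21 (others 8.63 to 8.79), and Atp5me was 6.72 in replicate 6 of that group (others 5.53 to 5.88). Cox5b was 6.01 in replicate 1 of filtered air on day 21 (others 5.6 to 5.70) and 5.74 in replicate 1 of the implanted filtered air rats (others 5.58 to 5.6). Cox6c-ps1, with a mean in the background range, was 3.01 in replicate 2 of filtered air on day 1 (others 1.30 to 1.57), the array with the lowest weight, and 0.946 in replicate 1 of the exposed rats on day 1 (others 1.79 to 2.1).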

How the results depend on the processing

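No alternative gave a call among the genes for exposure on any day, for the mean of the days, for the difference between days, for the implant in filtered air or for its interaction with exposure. The counts for the day and for the implant in exposed rats did depend on the processing, and the cause was not tested. For day 21 against day 1 (8 in filtered air, 14 in exposed rats), the lower quartile covariate and the erythroid covariate each gave 0 and 0, and the compared groups alone gave 0 and 6. Over all probe sets (673 and 2779) these settings gave 33 and 27, 3 and 3, and 8 and 928. For the course (9 and 14), both covariates gave 0 and 0, the compared groups alone 2 and 5, no array weights 8 and 6, and leaving out the arrays of weight under 0.5 gave 9 and 8. All probe sets (618 and 1610) gave 46 and 33 with the lower quartile, 11 and 4 with the erythroid mean, 208 and 586, 342 and 936, and 570 and 1049. For the implant in exposed rats (3), no array weights and the compared groups alone gave 0, and a mean of at least 3 gave 8, where all probe sets (418) gave 99, 70 and 801. Atp5pd between days in exposed rats turned to 0.027 with the erythroid covariate (main −0.62). Leaving out 1 array gave 2 to 9 and 7 to 15 calls between days, 6 to 10 and 6 to 15 for the course, and 1 to 5 for the implant.

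Deviations from the group means of same-numbered arrays of the arms had low correlations (34 pairs, r from −0.08 to 0.25, the highest on day 13). The labels do not say whether a number stands for a shared run or plate, and these correlations cannot settle it. The fit with the replicate block gave 9 and 14 calls between days, 9 and 13 for the course and 3 for the implant.

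Of the values of single genes under alternatives, 631 stayed on their side of the threshold, 123 kept their direction but lost the call and 1 reversed. The 631 include the genes named for exposure, which had no call in the main fit to lose. They also include updated symbols and the probe set of highest variance. Over all probe sets, both settings gave the same calls between days as the main fit (673 and 2779). The 631 is therefore not a count of calls that held.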
